A study of Mus musculus with 60 samples.

Results

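The Hox genes of the mouse were followed in nascent RNA: 30 members of the HoxA, HoxB, HoxC and HoxD clusters, taken from the 27665 transcript rows of the deposited count table. A row was a member when its Ensembl transcript identifier mapped in GENCODE M21 to the symbol of a Hoxa, Hoxb, Hoxc or Hoxd gene. The rule was met by 31 rows, of which 30 are described. The rule reads names only and no measured value. HoxA and HoxB gave 8 members each, and HoxC and HoxD gave 7 each. Hoxa7, Hoxa9, Hoxb2, Hoxb5, Hoxc5, Hoxc6, Hoxd4 and Hoxd11 were not analysed here.

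The 60 libraries were EU-seq, in which cells take up 5-ethynyl uridine (0.5 mM for 20 min) and only the RNA made during that pulse is captured and sequenced. All mouse embryonic stem cell (mESC) lines derived from E14 and carried degron tags, which let a small molecule remove the tagged protein within hours. Controls carried the same tags and mutations. RAD21, a subunit of the cohesin ring that extrudes DNA loops, was tagged in GFP-AID-Rad21 cells (RAD21-AID) and removed with 500 uM indole-3-acetic acid (IAA). In mESCs RAD21-AID was sampled after 4 h of IAA in an initial experiment of 2 control and 2 treated libraries, and again in 12 additional control and 12 additional treated libraries. Neural progenitor cells (NPCs) of the same genotype were sampled untreated and at 1, 2 and 4 h of IAA. A further NPC group received 10 uM A-485 for 1 h, which blocks the catalytic activity of the histone acetyltransferases CBP and p300. Each NPC group had 2 libraries. CTCF, the DNA-binding protein at which cohesin loops are anchored, was removed from GFP-AID-Ctcf cells (CTCF-AID) with 500 uM IAA for 6 h, with 2 stranded libraries and 2 libraries not labelled as stranded (called unstranded below) per group. In GFP-FKBP12F36V-Ctcf (Y226A/F228A) cells (CTCF YF-AA) the tagged CTCF itself carries substitutions in the segment that binds cohesin, and 200 nM dTAG13 removed it for 2 or 4 h. The bTAG-delN-CTCF/dTAG-CTCF-delC line holds an N-terminally and a C-terminally truncated CTCF, which were removed for 2 h singly or together by 100 nM AGB1 and 100 nM dTAG13, the doses on the labels. The column headers of the count table give 200 nM dTAG13 for this line. The treatment text of 18 libraries of the CTCF-AID, YF-AA and initial RAD21-AID sets names triptolide, and their groups were taken from the titles. Each group of these CTCF YF-AA and truncation lines had 2 libraries. The degrons act on protein, so the counts do not check the depletion. Nothing in the labels says that replicates came from separate cultures, and the p-values then measure only the spread between these libraries.

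Hox genes encode homeodomain transcription factors that give cells their position along the head-to-tail axis. Within a cluster the genes lie in the order of their expression along that axis, so that low-numbered (anterior) genes are used in the hindbrain and high-numbered (posterior) genes in the trunk, tail and limbs. In mESCs the clusters are textbook targets of Polycomb repression, and in the neural lineage retinoic acid, FGF and CDX factors open them progressively. CTCF sites inside the clusters are known to separate active from repressed chromatin.

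On mm10 the HoxA members lay on the minus strand of chromosome 6 from 52162417 to 52260803, a span of 98.4 kb, in the order Hoxa13, Hoxa11, Hoxa10, Hoxa6, Hoxa5, Hoxa4, Hoxa3 and Hoxa2 in the direction of transcription. HoxB occupied 173.9 kb of the plus strand of chromosome 11 (96194316 to 96368256), with Hoxb13, Hoxb9, Hoxb8, Hoxb7, Hoxb6, Hoxb4, Hoxb3 and Hoxb1. HoxC occupied 115.3 kb of the plus strand of chromosome 15 (102921103 to 103036405), with Hoxc13, Hoxc12, Hoxc11, Hoxc10, Hoxc9, Hoxc8 and Hoxc4. HoxD occupied 96.8 kb of the plus strand of chromosome 2 (74668310 to 74765142), with Hoxd13, Hoxd12, Hoxd10, Hoxd9, Hoxd8, Hoxd3 and Hoxd1. In each cluster transcription therefore runs from the posterior to the anterior end.

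Reads were counted over whole gene bodies, introns included, and in these dense loci a body is not always private to its gene. The counted Hoxa3 transcript is 44.05 kb long and covers Hoxa4, Hoxa5 and Hoxa6 on the same strand. Hoxd3 (36.34 kb) runs across Hoxd4 and Mir10b, and the bodies of Hoxc8, Hoxc9 and Hoxc10 lie under an annotated Hoxc5 transcript model on the same strand. In all, 5 members shared same-strand sequence with another counted transcript. A further source of mixing is the other strand: 9 members had an annotated gene on the opposite strand within their body, and in 6 of these (Hoxa6, Hoxa5, Hoxa4, Hoxa3, Hoxb6 and Hoxd8) it covered over 50% of it. The sources used here do not say whether counting used strand, so reads of these genes and their antisense partners cannot be told apart.

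The promoters of 4 members whose values are described below are shown because they differ in the CTCF motif and because CTCF and cohesin loss are the perturbations tested. The sequences are from RefSeq (GRCm38.p6) and run from 250 bases before to 50 bases after the RefSeq start, in the direction of the gene. Capitals mark a match to CCNNNAGNNGGC, the core of the CTCF recognition sequence, searched on both strands (GCCNNCTNNNGG on the other).
Hoxd3 promoter, chr2:74711743-74712042 (plus strand): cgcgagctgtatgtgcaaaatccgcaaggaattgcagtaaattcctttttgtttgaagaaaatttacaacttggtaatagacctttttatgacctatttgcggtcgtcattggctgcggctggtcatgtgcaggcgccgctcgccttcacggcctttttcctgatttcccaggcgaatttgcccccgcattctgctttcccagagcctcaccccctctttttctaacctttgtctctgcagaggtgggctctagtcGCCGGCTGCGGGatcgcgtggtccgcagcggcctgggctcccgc
Hoxa11 promoter, chr6:52245761-52246060 (minus strand): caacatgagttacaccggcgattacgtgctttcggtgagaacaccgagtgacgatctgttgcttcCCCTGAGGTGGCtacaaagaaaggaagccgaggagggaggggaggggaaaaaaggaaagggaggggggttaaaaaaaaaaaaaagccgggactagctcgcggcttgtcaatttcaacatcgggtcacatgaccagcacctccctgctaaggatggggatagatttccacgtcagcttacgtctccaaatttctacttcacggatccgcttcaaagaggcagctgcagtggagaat
Hoxb8 promoter, chr11:96281655-96281954 (plus strand): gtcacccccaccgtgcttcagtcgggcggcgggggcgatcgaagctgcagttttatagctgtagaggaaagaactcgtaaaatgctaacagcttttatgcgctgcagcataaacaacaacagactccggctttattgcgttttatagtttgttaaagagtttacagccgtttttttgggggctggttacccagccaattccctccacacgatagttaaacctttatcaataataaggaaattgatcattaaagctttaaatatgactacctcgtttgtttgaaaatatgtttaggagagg
Hoxb4 promoter, chr11:96318017-96318316 (plus strand): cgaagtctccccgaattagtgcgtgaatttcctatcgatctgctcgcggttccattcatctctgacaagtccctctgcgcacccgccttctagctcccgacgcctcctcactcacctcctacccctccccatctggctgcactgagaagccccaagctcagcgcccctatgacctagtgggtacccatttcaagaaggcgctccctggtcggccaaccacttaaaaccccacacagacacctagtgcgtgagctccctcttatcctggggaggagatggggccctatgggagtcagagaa
In Hoxd3 the match is on the reverse strand at position 7 after the start, and in Hoxa11 it is on the forward strand at position -185. Neither Hoxb8 nor Hoxb4 holds these letters in the window shown. The RefSeq start of Hoxd3 is 66 bp from the start of the counted transcript, and those of the other 3 promoters shown coincide with it. RefSeq promoter entries were found for 18 members (19 entries), of which 16 were within 100 bp of the counted start. The motif was present in 3 of the 19 (15.8%), the remaining one being Hoxc4, whose RefSeq start is far from the counted one. Of all 32851 promoters of the same length, 8.6% held it. Whether CTCF binds at these matches was not examined. The Hox promoters had a median GC content of 59.3% (42.3 to 81.0%) against 52.7% for all promoters. Their median observed over expected CpG ratio was 0.75 (0.33 to 1.02) against 0.38.

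Library totals ranged from 4027449 to 21898781 counts (median 13579700.5). Hox genes made up a very small share of them. In additional RAD21-AID mESC controls the 30 members together took 0.00608 to 0.00681% of a library, and in NPC controls 0.08796 to 0.08826%. Levels between genes are given below as TPM, a share of all transcripts that divides by gene body length and therefore counts introns. Values for 1 gene between samples are given as CPM, the count scaled to the library total. The NPC libraries carried high levels of neural progenitor markers: 9 markers summed to 1412 to 1583 TPM, against 34.84 to 44.78 TPM in mESCs. They had 1.61 TPM of Pou5f1 and 4.70 TPM of Nanog, the defining pluripotency genes. Sox2, which both cell types use, stood at 275.5 TPM. Of 7 regional markers of the neural tube, 4 exceeded 15 TPM in NPCs, among them the midbrain gene En1 (59.64 TPM).

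NPCs transcribed all 4 clusters, whereas mESCs transcribed mainly the posterior end of HoxC and Hoxb9. Taking a mean above 15 TPM as active, 23 of 30 members were active in NPC controls: 7 of 8 in HoxA, 6 of 8 in HoxB, 5 of 7 in HoxC and 5 of 7 in HoxD. In the additional RAD21-AID mESC controls 3 of 30 were active, namely Hoxb9, Hoxc13 and Hoxc12. Over all transcript rows 35.95% were above 15 TPM in NPCs and 33.63% in mESCs. At 10 TPM the members active were 24 in NPCs and 3 in mESCs, and at 30 TPM 20 and 2.

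The member with the highest level in NPCs was Hoxb9, a posterior trunk gene, at 329.1 and 342.2 TPM (335.6 ± 9.28, SD, n = 2). The rest of HoxB followed from Hoxb6 (203.3 TPM) through Hoxb4 (160.7), Hoxb3 (145.5), Hoxb8 (135.4) and Hoxb7 (111.9). The outermost members of this cluster were low, with Hoxb13 at 10.2 TPM and Hoxb1, a rhombomere gene of the hindbrain, at 0.69 TPM. In HoxC the highest level was that of Hoxc8, with 155.4 and 166.4 TPM (160.9 ± 7.77, SD, n = 2), between Hoxc9 at 70.8 TPM and Hoxc4 at 37.3 TPM. In HoxA the highest was Hoxa2, the most anterior Hox gene of the hindbrain, with 105.0 and 113.4 TPM (109.2 ± 5.96, SD, n = 2). In HoxD it was Hoxd8, with 56.0 and 56.2 TPM (56.1 ± 0.131, SD, n = 2). Levels were lower at the posterior end of HoxA, at 2.36 TPM for Hoxa13 and 16.5 TPM for Hoxa11. HoxD was less regular, since Hoxd13, its outermost posterior gene and one of digits and genitalia, reached 35.0 TPM, while the next genes were Hoxd12 at 3.49 TPM and Hoxd10 at 43.8 TPM.

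In mESCs the order was different. Hoxc12 had the highest level, at 122.8 to 173.6 TPM with a median of 150.3 over the 12 additional controls, and at 185.5 and 176.1 TPM in the initial experiment. In NPCs the same gene was at 1.53 and 6.53 TPM, with no overlap between the cell types. Hoxc13 was next in mESCs at a mean of 66.0 TPM, against 5.07 TPM in NPCs. Both are posterior genes, and Hoxc13 is known for its role in hair and nails. In CTCF-AID controls Hoxc13 had 79.64 and 76.1 TPM in unstranded libraries and 30.2 and 35.92 TPM in stranded ones. Hoxa2 had means of 11.91 and 1.713 TPM, whereas Hoxc12, at 168.7 and 201 TPM, was not lower in stranded libraries. The RAD21-AID libraries were not labelled as stranded, and the part of library type in the Hoxc13 level was not tested. The highest member of HoxB in mESCs was Hoxb9, at 16.3 to 24.8 TPM with a median of 22.4. In HoxA it was Hoxa2, at 1.76 to 6.95 TPM with a median of 3.82, and in HoxD it was Hoxd13, at 0 to 2.71 TPM with a median of 1.82. The highest Hox level stood at the 96.46th percentile of all rows in mESCs and at the 99.01st in NPCs.

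**Figure D1:**
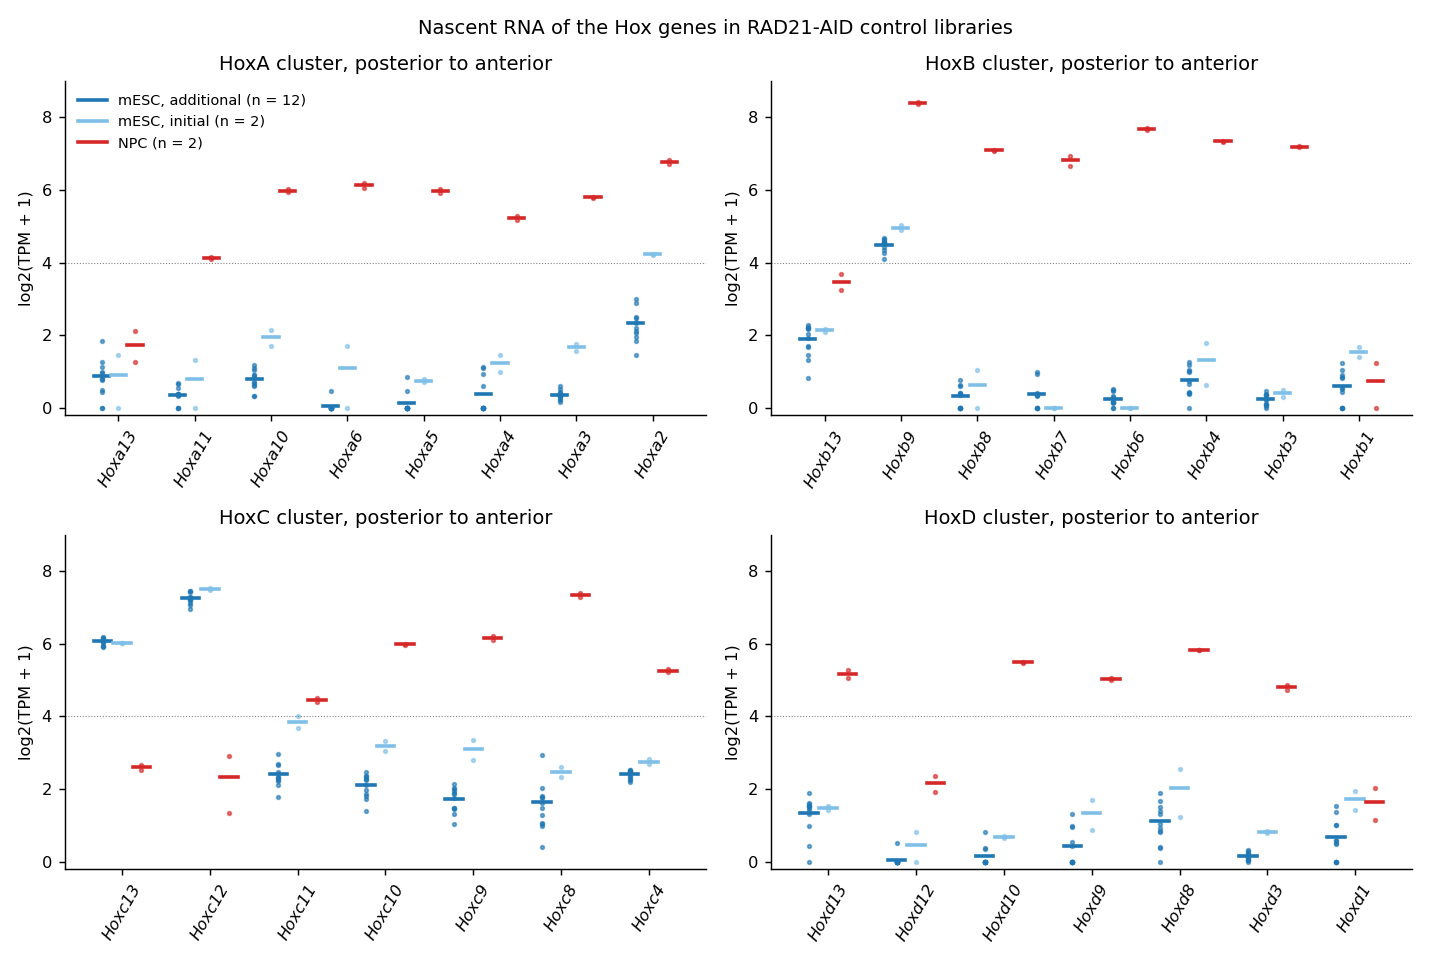
Nascent transcript level of each Hox gene in RAD21-AID control libraries of additional mESCs (n = 12), initial mESCs (n = 2) and NPCs (n = 2), drawn per cluster in genomic order from the posterior to the anterior end. The y axis is log2 (TPM + 1); each point is a library, the short bar is the group mean and the dotted line is 15 TPM. NPC means lie above the line for 23 of 30 genes, while in the additional mESCs only Hoxb9, Hoxc13 and Hoxc12 have a mean above it.

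A gene was tested with edgeR's quasi-likelihood test when its mean count was above 20 in at least 1 of the groups compared. Only Hoxb9, Hoxc13 and Hoxc4 had this in both NPC and additional mESC controls. A further 22 members entered through NPCs alone and Hoxc12 through mESCs alone, in each case the group where they are high, so that a difference was largely fixed by the filter and the counts that follow are a description. Of these 26 members 24 were higher in NPCs and 2 lower by at least 2-fold, and over all genes tested 26.8% were higher by the same rule and 18.7% lower. Of the 3 with enough counts in both, Hoxb9 and Hoxc4 were higher and Hoxc13 lower. Hoxa13, Hoxb1, Hoxd12 and Hoxd1 had too few counts in both. Among tested members with more than 3 counts in the 12 mESC libraries together, the largest increases were in HoxB. They were Hoxb6 by 10.03 ± 0.11 (log2 fold change ± SE, as throughout, adjusted p = 1.26e-52), Hoxb3 by 9.73 ± 0.09 (adjusted p = 1.59e-55) and Hoxb8 by 8.93 ± 0.19 (adjusted p = 2.45e-40). In those 12 libraries together they had only 18, 45 and 9 counts, so the size of these folds rests on few mESC reads. Hoxa6 had 1 count and Hoxa5 and Hoxd10 had 3 counts each in the 12 mESC libraries together, so no fold is given for these.

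The 2 genes that went down were those that led in mESCs. Hoxc12 was 35.6-fold lower in NPCs (log2 fold change -5.15 ± 0.21, adjusted p = 1.21e-28) and Hoxc13 12.8-fold lower (-3.68 ± 0.12, adjusted p = 2.88e-33). Within HoxC the sign of the difference from these additional controls thus turned between Hoxc12 and Hoxc11, the next gene, which was 2.27 higher on the log2 scale. The turn depended on the mESC set. Hoxc11 had 21.54 and 20.01 TPM in NPC controls and 17.18 to 26.76 TPM in the 4 CTCF-AID controls. It had 15.14 and 11.79 TPM in initial RAD21-AID controls, 10.25 and 7.232 TPM in YF-AA and 3.945 and 3.332 TPM in the truncation line. The NPC libraries carry a batch label of their own (CC56), so cell type and batch cannot be told apart. In bulk RNA, more cells transcribing a gene and more transcription per cell cannot be told apart either.

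Hox levels also differed between mESC lines that had not been treated. Hoxc12 and Hoxc4 were higher in CTCF-AID than in the YF-AA and truncation lines, and Hoxa3 was lower. Hoxc11, Hoxc10 and Hoxc9 were also called higher in CTCF-AID, but on counts that were enough for a test in that line alone. Counts of members above 15 TPM were 4 in initial RAD21-AID controls, 6 in unstranded and 7 in stranded CTCF-AID controls, 5 in YF-AA and 3 in the truncation line. In stranded CTCF-AID controls 6 of the 7 active members were HoxC genes. Over all rows the share above 15 TPM was between 30.26 and 36.51% in these 5 sets.

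Against unstranded CTCF-AID controls, 6 members had enough counts in both lines and 4 of these passed the test in YF-AA controls, Hoxa3 higher and Hoxc13, Hoxc12 and Hoxc4 lower. Another 7 were tested through 1 line alone, where they are high, namely Hoxb13, Hoxc11, Hoxc10, Hoxc9 and Hoxc8 through CTCF-AID and Hoxa10 and Hoxd3 through YF-AA. All 7 passed, which the filter favours, so that the total of 11 of 13 is no measure against the 47.7% of all genes that passed. Hoxa10, a gene of the lumbar spine and uterus, had 0.636 and 0.746 CPM in CTCF-AID and 7.38 and 13.1 CPM in YF-AA (log2 fold change 3.90 ± 0.38, adjusted p = 7.66e-07). Hoxa3, a gene of the neck and pharyngeal arches, had 2.97 and 1.72 CPM against 11.8 and 11.2 CPM (2.24 ± 0.30, adjusted p = 1.65e-05). Neither pair of groups overlapped. Hoxd3 (1.55 ± 0.39, adjusted p = 0.00327) was higher too.

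Lower in YF-AA were Hoxb13, Hoxc13, Hoxc12, Hoxc11, Hoxc10, Hoxc9, Hoxc8 and Hoxc4. Hoxc9 fell from 8.48 and 10.1 CPM in CTCF-AID to 1.72 and 2.34 CPM (log2 fold change -2.15 ± 0.30, adjusted p = 4.04e-05). The changes of Hoxb13 (-2.25 ± 0.48, adjusted p = 0.00146), Hoxc11 (-1.64 ± 0.40, adjusted p = 0.00365) and Hoxc4 (-1.61 ± 0.30, adjusted p = 0.000498) were of like size. Without 1 library, YF-AA control replicate 2, 7 members passed.

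In the truncation line, compared with stranded CTCF-AID controls, 3 of the 5 members with enough counts in both lines passed, namely Hoxa3, Hoxc12 and Hoxc4. The other 5 were tested through 1 line alone, and Hoxc11, Hoxc10 and Hoxc9, tested through CTCF-AID where they are high, passed too. The filter favours such calls, so the total of 6 of 10 is no measure against the 19.5% of all genes that passed. Hoxa3 was higher (2.46 ± 0.42, adjusted p = 0.0165). Hoxc12, Hoxc11, Hoxc10, Hoxc9 and Hoxc4 were lower, with Hoxc9 at 9.36 and 6.15 CPM in CTCF-AID and 0.625 and 0.822 CPM in the truncation line (-3.39 ± 0.45, adjusted p = 0.00936). These calls rested on few libraries: 0 members passed without either truncation control replicate. Between the initial and the additional RAD21-AID controls, which are of 1 genotype, 1 of the 4 members with enough counts in both passed. This was Hoxc13, which was higher in the additional set (0.18 ± 0.08, adjusted p = 0.000955). The p-value tests the uncentred change, from which centring took 0.12 in this comparison. Another 5 were tested only through the initial set, where they are high. All 5 were lower in the additional set, which the filter favours, so this is no measure against the 35.7% of all genes that were lower. Among the 5 the largest differences were those of Hoxa3 (-2.83 ± 0.25, adjusted p = 1.36e-12) and Hoxa2 (-2.05 ± 0.31, adjusted p = 7.5e-07). Line and experiment cannot be told apart in the comparisons between lines, and the comparison within RAD21-AID gave differences between experiments of 1 line. A list of 7 mesoderm and endoderm markers summed to 43.58 to 49.77 TPM in the initial and 41.14 to 52.94 TPM in the additional controls, and 9 neural progenitor markers to 50.32 to 51.24 and 34.84 to 44.78 TPM. The part of the neural list in the result was not tested.

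**Figure D2:**
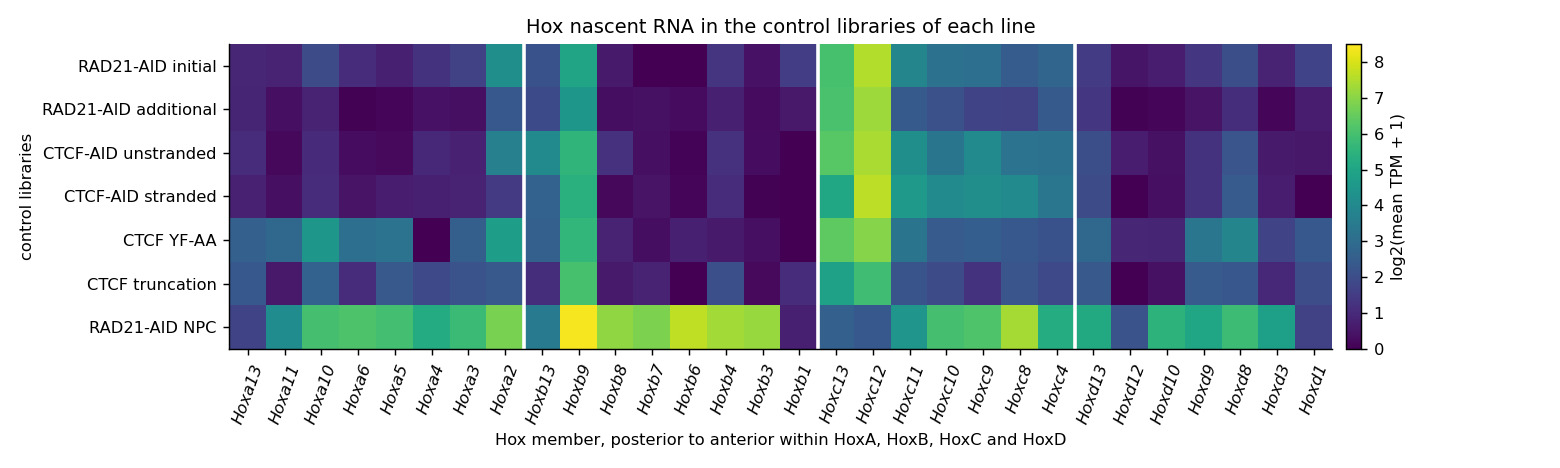
Mean control level of each Hox gene in the 6 sets of mESC controls and in NPC controls, as colour on the log2 (TPM + 1) scale, with control sets in rows and genes in columns in genomic order by cluster. Hoxc12 and Hoxc13 are high in all mESC rows (28.4 to 201 TPM) and low in NPCs (4.03 and 5.07 TPM), and 7 of 8 HoxA genes have a higher mean in the YF-AA row than in both CTCF-AID rows, Hoxa4 (0 TPM in YF-AA) being the exception; most of these HoxA genes had too few counts for a test.

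After cohesin loss in mESCs Hoxc13 and Hoxc12, which were already active at the posterior end of HoxC, were higher in both experiments, and Hoxc4, which stood below 15 TPM, in the additional one. In the initial experiment 2 of 10 tested members were higher after 4 h of IAA, where 3.40% of all genes were, and none was lower. Hoxc13 rose from 24.4 and 23.5 CPM to 34.1 and 34.8 CPM (log2 fold change 0.53 ± 0.11, adjusted p = 0.000127). Hoxc12 rose from 17.0 and 15.4 CPM to 22.6 and 20.4 CPM (0.42 ± 0.14, adjusted p = 0.0329). In neither gene did the groups overlap. The call for Hoxc12 was lost without control replicate 2 (adjusted p = 0.213), IAA replicate 1 (adjusted p = 0.401) or IAA replicate 2 (adjusted p = 0.161). The median change of the 10 members was 0.14 and that of all genes 0.01.

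The 24 additional libraries gave smaller errors. Of 4 members with enough counts, 3 were higher, where 31.0% of all genes were. Hoxc12 ranged from 13.8 to 18.6 CPM in controls (median 16.2) and from 20.1 to 25.2 CPM after IAA (median 22.4), with no overlap between the 12 and 12 libraries. Its change was 0.45 ± 0.04 on the log2 scale, or 1.36-fold (adjusted p = 3.9e-12). Hoxc13 went from a median of 29.5 CPM (27.1 to 33.2) to 33.8 CPM (29.6 to 36.8), a change of 0.20 ± 0.04 (adjusted p = 5.08e-06). Hoxc4, the most anterior member of the cluster in the table, went from 4.54 CPM (3.75 to 4.89) to 5.12 CPM (4.22 to 5.57), a change of 0.23 ± 0.07 (adjusted p = 0.00819). The ranges of these last 2 genes overlapped. Hoxb9 had a median of 6.67 CPM in both groups and did not pass (0.09 ± 0.07, adjusted p = 0.284).

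Replicate 1 of both groups came from a different batch (CC52) than the others (CC53). Within CC53 alone the changes were 0.42 for Hoxc12 and 0.21 for Hoxc13. The remaining 26 members fell under the count filter, which asks for a mean count above 20 in a group. When the filter was dropped, Hoxb13 rose by 0.96 ± 0.19 (adjusted p = 5.41e-05), from a median of 0.525 CPM (0.145 to 0.703) to 0.981 CPM (0.677 to 1.41). Hoxd13 fell by 1.04 ± 0.34 (adjusted p = 0.00912), from a median of 0.348 CPM to 0.134 CPM. Hoxa2 (0.58) and Hoxc11 (0.57) were higher and Hoxa10 (-0.71) lower in that fit, in which 8 members passed in all, 6 higher and 2 lower. Over all genes in that fit 19.6% were higher and 18.9% lower. These genes were at a few counts per library.

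**Figure D3:**
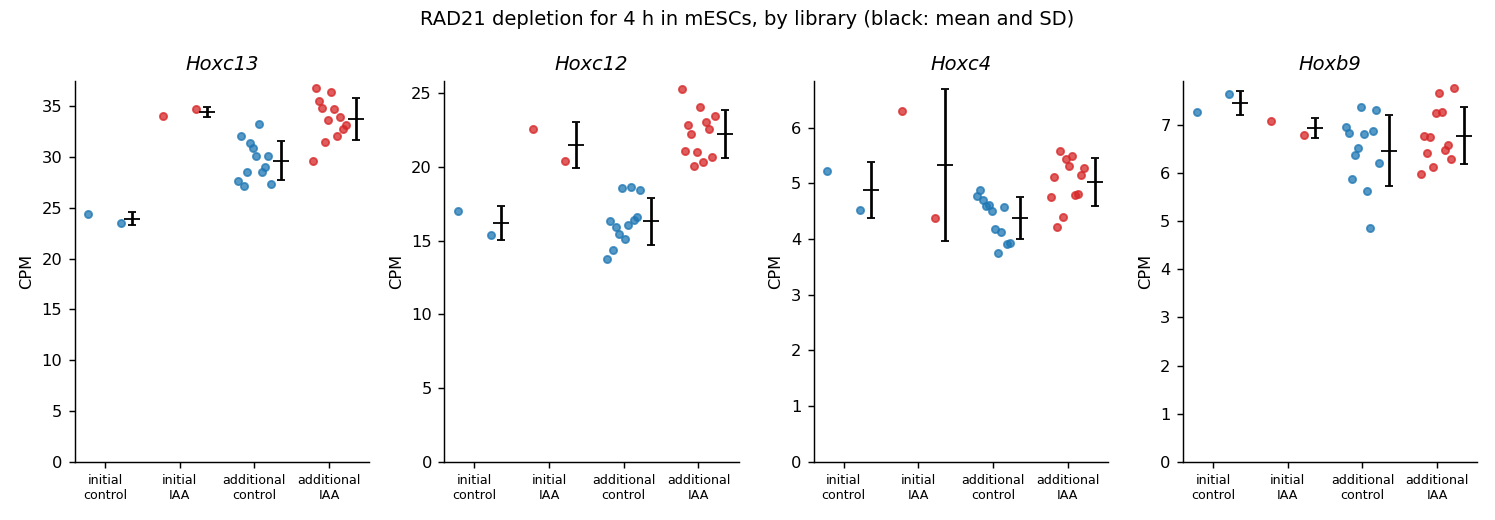
CPM of the most transcribed Hox genes in RAD21-AID mESC libraries without and with 4 h of IAA, with the initial (2 and 2 libraries) and the additional (12 and 12 libraries) experiments side by side. Points are libraries and black bars give the mean and SD; for Hoxc12 in the additional experiment the highest control (18.6 CPM) lies below the lowest treated library (20.1 CPM).

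In NPCs, where 25 members had enough counts, Hoxc8, Hoxc9, Hoxc10 and Hoxd3 were higher at 1, 2 and 4 h of cohesin loss. All these times were compared with the same 2 control libraries. The share of members that were higher was above that of all genes at 1 and 2 h, and at 4 h the shares both ways were near those of all genes. After 1 h of IAA, 8 of 25 members were higher, where 8.34% of all genes were, and none was lower. Hoxc8 had 35.3 and 36.6 CPM in controls and 46.6 and 49.6 CPM after IAA (log2 fold change 0.40 ± 0.07, adjusted p = 0.000182). Hoxa2 had 17.9 and 18.7 CPM and then 25.6 and 23.6 CPM (0.40 ± 0.10, adjusted p = 0.00438). Hoxc9 had 38.7 and 40.6 CPM and then 48.2 and 55.7 CPM (0.37 ± 0.07, adjusted p = 0.000702). Both HoxC genes are active in the thoracic spinal cord. Hoxd3, a cervical gene, had 66.0 and 69.4 CPM and then 87.2 and 87.7 CPM (0.35 ± 0.05, adjusted p = 3.11e-05). In none of these 4 genes did the groups overlap. Hoxc10 (0.32), Hoxb8 (0.21), Hoxa3 (0.20) and Hoxb6 (0.20) were the other 4 that passed. Hoxb8 and Hoxc10 did not pass in every fit that left out 1 library: Hoxb8 without control replicate 1, control replicate 2 or IAA replicate 2 (adjusted p from 0.0653 to 0.265), Hoxc10 without control replicate 2 (0.101) or IAA replicate 1 (0.157). The median change was 0.17 over the members and -0.03 over all genes.

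After 2 h of IAA, 5 of 25 were higher, where 5.35% of all genes were, and again none was lower. The 3 neighbouring HoxC genes led. Hoxc9 went from 31.5 and 33.4 CPM to 48.2 and 49.1 CPM (0.57 ± 0.08, adjusted p = 0.00045). Hoxc10, a lumbar gene, went from 18.6 and 17.7 CPM to 26.0 and 26.4 CPM (0.52 ± 0.10, adjusted p = 0.00322). Hoxc8 went from 28.8 and 30.02 CPM to 43.3 and 40.6 CPM (0.50 ± 0.08, adjusted p = 0.00101). As given above, the bodies of these 3 lie under 1 Hoxc5 transcript model, and its part in the result was not tested. Hoxb8 went from 27.0 and 25.6 CPM to 34.1 and 40.8 CPM (0.49 ± 0.11, adjusted p = 0.00734), and Hoxd3 from 53.8 and 57.0 CPM to 64.3 and 62.6 CPM (0.18 ± 0.07, adjusted p = 0.0485). For Hoxd3 the call was lost without either control (adjusted p = 0.483 and 0.222). Counts after 1 h are over at most the first 90 kb of a gene and those after 2 and 4 h over the whole body. No Hox member is longer than 90 kb, so the control CPM differ through the library total.

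After 4 h, 4 of 25 members were higher, where 18.4% of all genes were, and 5 were lower, where 21.1% were, so the share of members that moved was near that of all genes. The 4 that were higher were Hoxc9 (38.8 and 37.5 CPM after IAA, log2 fold change 0.22 ± 0.07, adjusted p = 0.00362), Hoxc10 (21.6 and 21.1 CPM, 0.22 ± 0.09, adjusted p = 0.0245), Hoxc8 (34.1 and 32.5 CPM, 0.16 ± 0.07, adjusted p = 0.0294) and Hoxd3 (59.6 and 61.6 CPM, 0.11 ± 0.05, adjusted p = 0.0346). The same controls served every comparison of treated with untreated NPCs, the 2 h and the 4 h comparison among them. The calls at the different times are therefore not independent of each other.

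The 5 members that fell at 4 h were Hoxa11, Hoxa10, Hoxc4, Hoxb4 and Hoxb3. Hoxa11, a gene of the forearm and uterus, went from 3.47 and 3.49 CPM to 2.49 and 1.82 CPM (-0.70 ± 0.24, adjusted p = 0.0251). Hoxa10 went from 31.1 and 32.3 CPM to 25.4 and 23.5 CPM (-0.39 ± 0.08, adjusted p = 0.000328). Hoxc4 went from 36.5 and 37.6 CPM to 27.9 and 30.8 CPM (-0.35 ± 0.07, adjusted p = 0.000521). Hoxb4 and Hoxb3 are hindbrain and upper spinal cord genes. Hoxb4 went from 31.6 and 30.02 CPM to 25.1 and 28.2 CPM (-0.23 ± 0.08, adjusted p = 0.0488), and Hoxb3 from 205.3 and 201.9 CPM to 179.7 and 175.7 CPM (-0.21 ± 0.04, adjusted p = 0.000305). The groups did not overlap for any of the 5. Hoxa10, Hoxb3, Hoxc4 and Hoxc9 passed whichever library was left out, and the other 5 did not. Hoxa11 lost its call without either control (adjusted p = 0.0597 and 0.0634) or IAA replicate 2 (0.222), and Hoxb4 without control replicate 1 (0.231) or IAA replicate 1 (0.41). Hoxc10 lost it without control replicate 2 (0.141), IAA replicate 1 (0.13) or IAA replicate 2 (0.0668). Hoxc8 and Hoxd3 lost it without control replicate 1 (0.113 and 0.189), IAA replicate 1 (0.2 and 0.0563) or IAA replicate 2 (0.0502 and 0.199).

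**Figure D4:**
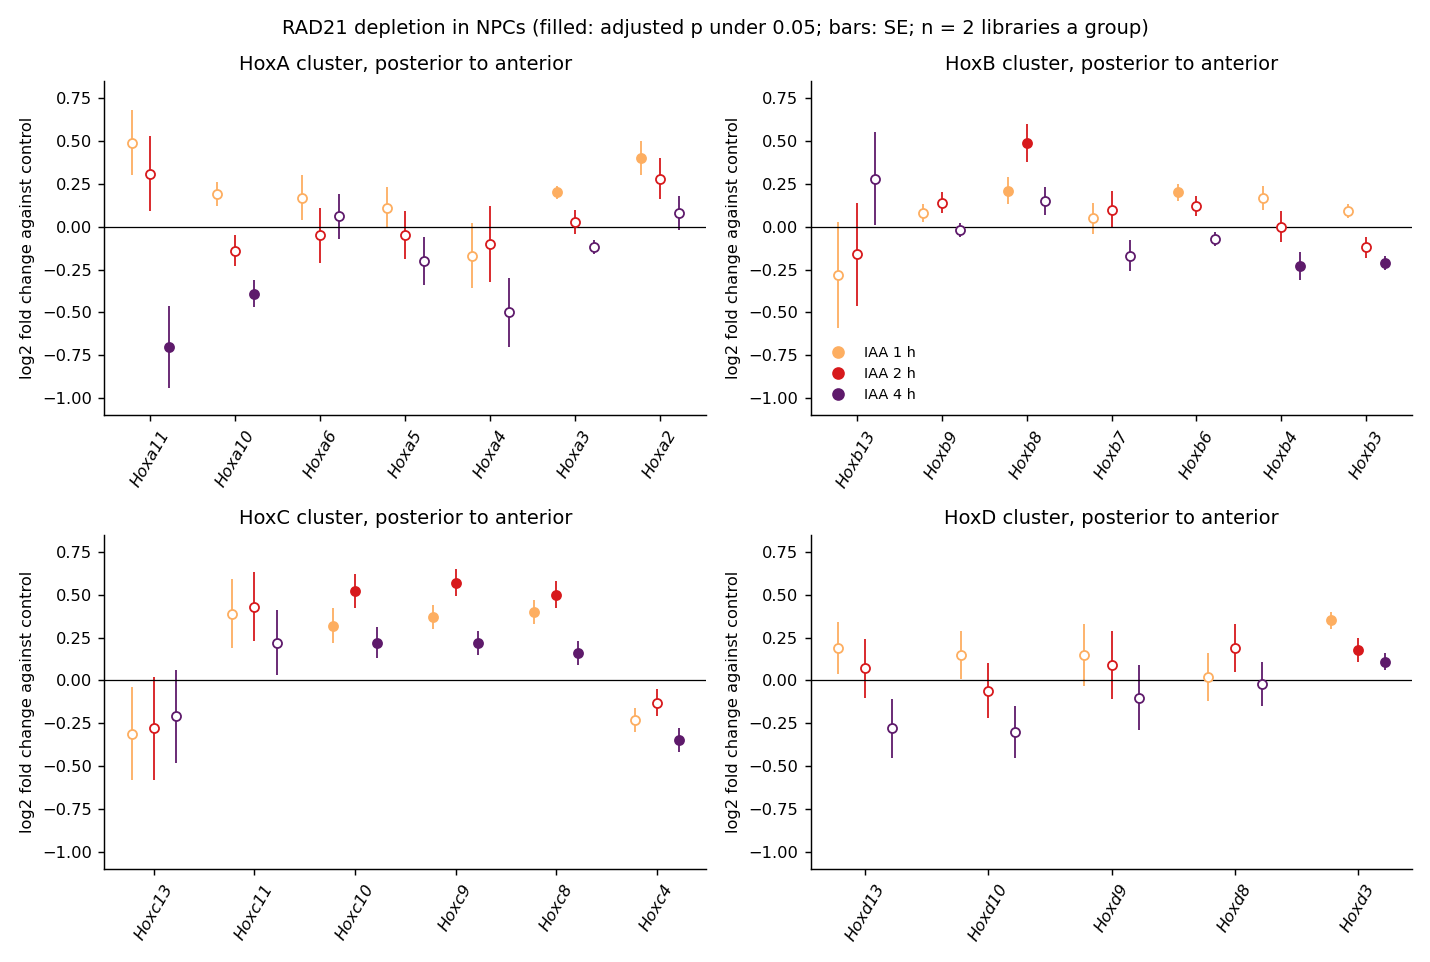
Change of each tested Hox gene in NPCs after 1, 2 and 4 h of IAA, on the log2 fold change scale with bars of 1 SE, per cluster from the posterior to the anterior end; filled symbols have an adjusted p under 0.05. Hoxc10, Hoxc9 and Hoxc8 lie above 0 at all 3 times (0.16 to 0.57), while Hoxc4 at the anterior end of the same cluster is below 0 (-0.35 at 4 h).

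Tested directly, 4 h against 2 h of IAA, 2 of 25 members were lower at 4 h, where 2.02% of all genes were. These were Hoxc9 (-0.35 ± 0.08, adjusted p = 0.0311) and Hoxc8 (-0.34 ± 0.08, adjusted p = 0.0451), so their rise was larger at 2 h than at 4 h. Without either 4 h replicate both calls were lost (adjusted p from 0.182 to 0.47). Regional markers of the neural tube moved in the same libraries, from a sum of 350.6 to 381.7 TPM in controls to 517.3 to 529.2 TPM after 4 h, while the 9 neural progenitor markers stood at 1539 to 1585 TPM after 4 h against 1412 to 1583 TPM. The part of the regional markers in the Hox result was not tested.

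Whether the effect of 4 h of IAA differs between cell types could be read for few members. Only Hoxb9, Hoxc13 and Hoxc4 had enough counts in the controls of both. For the others, low in 1 cell type, a difference would hardly have been detected, so the share of members is no measure against that of all genes. A difference was called for 1 of 26 tested members and for 33.4% of all genes. This was Hoxc4, which was higher in mESCs (0.23) and lower in NPCs (-0.35), a difference of -0.57 ± 0.11 (adjusted p = 8.25e-05). With the initial mESC experiment in place of the additional one no member passed. Hoxc12, the member that responded most clearly in mESCs, had too few counts in NPCs for a test of its response there.

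Inhibition of CBP/p300 lowered nearly the whole Hox complement of NPCs within 1 h. Of 25 tested members 24 were lower after A-485, where 35.3% of all genes were. All 24 fell by at least 2-fold, which 20.2% of all genes did. Hoxa11, Hoxa4, Hoxc13 and Hoxc11 were tested through the controls alone, where they are high, and of the 21 members with enough counts in both groups 20 were lower. The share of the library taken by the 30 members was 0.1059 to 0.1064% in controls and 0.02672 to 0.03046% after A-485, counted over at most 90 kb. The median change of the 25 members was -2.11 on the log2 scale and that of all genes -0.11. The count of 24 was the same without any 1 of the 4 libraries.

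Hoxb3 fell most, from 251.9 and 245.9 CPM to 37.0 and 37.9 CPM, which is 7.35-fold (log2 fold change -2.88 ± 0.07, adjusted p = 6.81e-15). Hoxd3 fell from 66.0 and 69.4 CPM to 9.94 and 12.3 CPM (-2.75 ± 0.10, adjusted p = 1.08e-12). Hoxa4, a gene of the neck region, fell from 5.20 and 5.38 CPM to 0.969 and 0.842 CPM (-2.69 ± 0.28, adjusted p = 8.21e-07). Hoxc4 fell from 44.8 and 45.8 CPM to 7.30 and 9.50 CPM (-2.57 ± 0.11, adjusted p = 1.89e-11). In each the treated libraries lay several-fold below the controls. The genes that cohesin loss had raised fell with the rest: Hoxc8 to 11.4 and 12.6 CPM, Hoxc9 to 10.7 and 13.2 CPM and Hoxc10 to 7.49 and 8.12 CPM.

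Clusters differed in the size of the fall, and in HoxB it grew from the posterior to the anterior end. HoxA had the largest median change (-2.47), and its members lay close together, from -2.69 for Hoxa4 to -2.10 for Hoxa5. As given above, the counted Hoxa3 body covers Hoxa4, Hoxa5 and Hoxa6, so the values of these genes may not be separate measurements. The medians of the other clusters were -1.70 in HoxB, -1.91 in HoxC and -1.90 in HoxD. Along HoxB the changes were -1.56 for Hoxb9, -1.70 for Hoxb8, -1.63 for Hoxb7, -2.13 for Hoxb6, -2.17 for Hoxb4 and -2.88 for Hoxb3. In HoxC the range was from -1.65 for Hoxc10 to -2.57 for Hoxc4. In HoxD Hoxd13 at the posterior end changed least (-1.27 ± 0.19, adjusted p = 6.52e-05) and Hoxd3 at the anterior end most. The most anterior tested member thus had the largest fall in HoxB, HoxC and HoxD and not in HoxA. Hoxb3 (24.61 kb), Hoxc4 (17.47 kb) and Hoxd3 (36.34 kb) are also the longest members of these clusters, so position and length cannot be told apart there. These differences between members were not tested.

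The exception was Hoxb13, which is separated from the rest of its cluster by a long interval. It had 1.87 and 2.54 CPM in controls and 2.32 and 2.17 CPM after A-485 (-0.13 ± 0.29, adjusted p = 0.988), and the groups overlapped. At this level a small change would not have been detectable. Gene body length goes partly with the order within a cluster. The 4 members over 10 kb changed by -2.88 to -2.55, and those of the 21 members up to 10 kb that passed by -2.69 to -1.27. Across members the Spearman correlation of change with length was -0.23 (n = 25), against -0.28 across all genes (n = 15894), a description over genes that share the libraries. Summed neural progenitor markers also fell, from 1412 to 1583 TPM in controls to 578.1 to 729.6 TPM, with all 9 above 1 TPM in both. Their part in the Hox result was not tested.

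**Figure D5:**
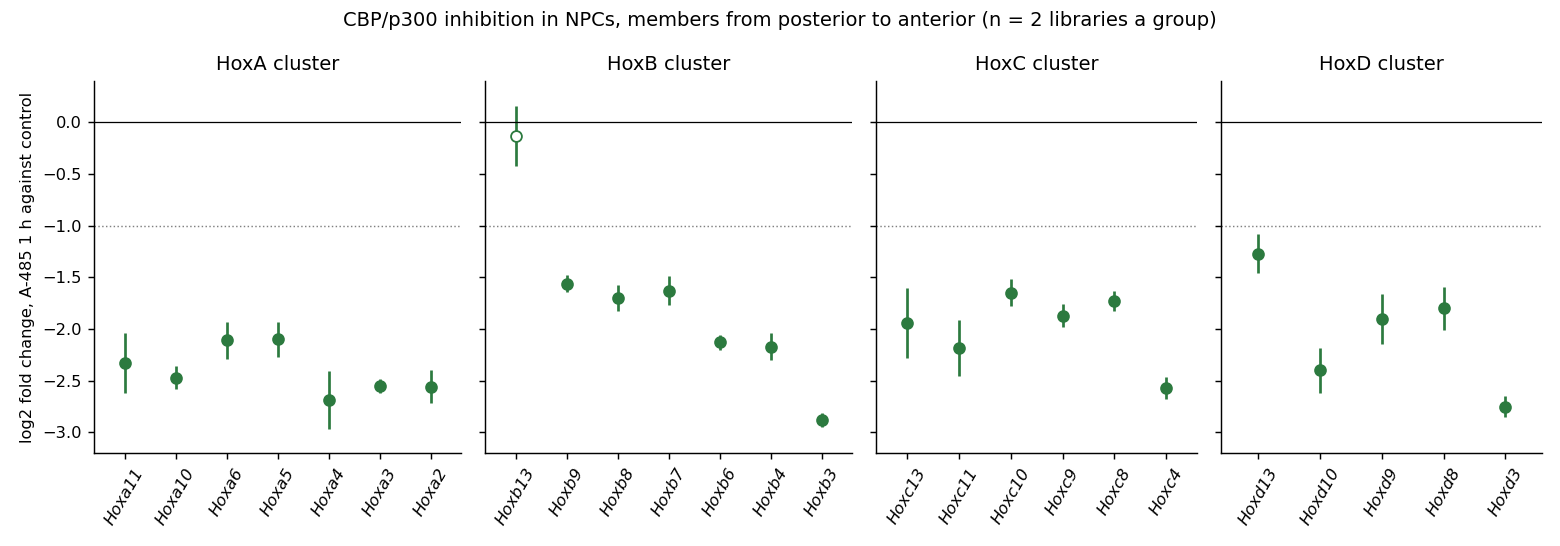
Change of each tested Hox gene in NPCs after 1 h of 10 uM A-485 on the log2 fold change scale, per cluster from the posterior to the anterior end, with bars of 1 SE; filled symbols have an adjusted p under 0.05 and the dotted line marks a 2-fold fall. All tested genes but Hoxb13 (-0.13) lie below the dotted line, and in HoxB the values descend toward Hoxb3 (-2.88).

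CTCF loss left few Hox genes to read in mESCs, and in the fit with library type as covariate none of 13 tested members passed, where 3.58% of all genes did. Without adjustment 0 members had p under 0.05 in that fit, against 2635 of all 15611 genes tested, and DESeq2 called 0 members. The fit with library type did not use the pairing of replicates described next, with which some members passed. The largest changes among the 13 were those of Hoxd8 (log2 fold change 1.32 ± 0.57, adjusted p = 0.305) and Hoxd3 (1.28 ± 0.61, adjusted p = 0.355). The other 17 members had too few counts for a test, and their summed counts went both ways. Over 4 control and 4 treated libraries Hoxb7 had 4 and 20 counts, Hoxb4 16 and 35 and Hoxb3 12 and 34. Hoxa10 had 31 and 19 and Hoxd13 34 and 19. Of the untested members only Hoxb7 had groups that did not overlap.

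The replicate numbers in this line paired the libraries, and with the pair as a block 4 of 13 members were higher, where 13.9% of all genes were. Hoxd8 and Hoxd3 were among 3 members tested through the IAA group alone, where they are high. Of the 10 with enough counts in both groups the ones higher were Hoxb13 and Hoxc12. Hoxd8 had 0.778 and 0.895 CPM in unstranded controls and 1.85 and 2.30 CPM after IAA, with 1.24 and 0.295 CPM against 2.96 and 0.622 CPM in stranded libraries (1.28 ± 0.26 in that fit, adjusted p = 0.00412). Hoxd3 had 1.77 and 1.12 CPM and then 4.14 and 2.30 CPM unstranded, and 1.85 and 0.639 CPM and then 5.56 and 0.791 CPM stranded (1.16 ± 0.24, adjusted p = 0.00475). Each pair rose, although for Hoxd8 and Hoxd3 the groups overlapped across pairs. Hoxb13 (0.83 ± 0.27, adjusted p = 0.044) and Hoxc12 (0.31 ± 0.08, adjusted p = 0.0281) also passed with the block, and Hoxc13 had a change of 0.03 (adjusted p = 0.988). Counts were low, at 6 to 12 reads per control library for Hoxd8.

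Loss of the mutated and truncated forms of CTCF gave no Hox call among members with enough counts. After dTAG13 in YF-AA cells 0 of 8 members passed at 2 h and 0 of 9 at 4 h, where 3.94 and 4.99% of all genes did. Without adjustment 1 member had p under 0.05 at each time, as did 1779 of 14009 genes at 2 h and 2135 of 14280 at 4 h, and DESeq2 called 0. That member was Hoxb9, at 13.3 and 12.9 CPM in controls, 22.1 and 16.4 CPM at 2 h (0.54 ± 0.21, adjusted p = 0.155) and 19.1 and 17.5 CPM at 4 h (0.49 ± 0.19, adjusted p = 0.155). The treated libraries lay above the controls at both times, which share these controls. Without the count filter 1 member passed at 4 h, where 3.32% of all genes did. This was Hoxb4, with 0 and 2 counts in controls and 10 and 17 counts at 4 h (0 and 0.195 CPM against 1.4 and 1.8 CPM, adjusted p = 0.0427).

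In the truncation line 0 of 6 members passed after AGB1, after dTAG13 or after both, where 2.14, 0.0808 and 6.59% of all genes did. Members with an unadjusted p under 0.05 numbered 0, 0 and 1 in the 3 comparisons, against 1562, 530 and 2595 of all genes, and DESeq2 called 0 in each. The one was Hoxa3 after both agents, from 10.1 and 10.3 CPM in controls to 7.83 and 7.41 CPM (-0.43 ± 0.19, adjusted p = 0.195).

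Genes around and upstream of the clusters were taken from lists, counted by transcript row where a gene has several. A list called cofactors here held PBX, MEIS and PREP genes, whose proteins bind DNA with Hox proteins, and TGIF genes. The cofactors fell with A-485 in 10 of 11 rows (median change -1.14), where 35.3% of all genes were lower and 32.4% higher. Meis1 fell from 910.9 to 66.21 CPM (-3.93 ± 0.07), more than any Hox gene. Of 18 tested rows for retinoic acid, CDX and other upstream regulators 14 were lower (median -1.23), with the retinaldehyde reductase Dhrs3 (-3.80) and the retinoic acid synthesising enzyme Aldh1a2 (-2.87) among them. Polycomb genes were mixed, with 19 lower and 9 higher of 37, as were Trithorax genes with 3 lower and 6 higher of 11.

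The genes flanking the clusters did not move as the Hox genes did after A-485. Beside HoxA 3 were lower and 1 higher of 6, beside HoxB 1 lower and 4 higher of 8, beside HoxC 4 and 4 of 11 and beside HoxD 5 lower and 1 higher of 8. Their medians were -0.51, -0.03, -0.12 and -0.34, against cluster medians of -2.47, -1.70, -1.91 and -1.90. Halr1, a non-coding RNA gene near HoxA, fell from 5.814 to 2.488 CPM (-1.37 ± 0.22, adjusted p = 0.000124).

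After 4 h of RAD21 loss in NPCs the retinoic acid genes Dhrs3 (86.82 to 18.36 CPM, log2 fold change -2.26 ± 0.06) and Aldh1a2 (14.54 to 3.36 CPM, -2.12 ± 0.15) fell more than any Hox gene, in a list with 6 rows higher and 6 lower of 18. Of the cofactors 4 were lower and 1 higher of 11, with Tgif1 at 0.57. Halr1 was higher, from 4.756 to 10.48 CPM (1.12 ± 0.15, adjusted p = 2.65e-07), while Hoxa10 and Hoxa11 were lower in the same libraries. The shares of all genes at 4 h were 18.4% higher and 21.1% lower. At 1 h 7 of 18 upstream regulators, 3 of 11 cofactors and 7 of 37 Polycomb rows were higher, beside the 8 Hox genes and 8.34% of all genes. At 2 h 4 upstream regulators were higher and 5 lower, 1 cofactor higher and 2 lower, and 3 Polycomb rows higher, where 5.35% of all genes were higher and 9.21% lower.

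In additional mESC libraries RAD21 loss raised Meis1 (8.33 to 14.71 CPM, 0.84 ± 0.06) and lowered Tgif1 (123.6 to 82.22 CPM, -0.57 ± 0.02). Of the cofactors 4 were higher and 3 lower of 10, of Polycomb rows 4 higher and 21 lower of 36, where 31.0% of all genes were higher and 27.4% lower. Beside HoxB 7 of 10 flanking rows were higher, with Copz2 (0.74) and Ttll6 (0.72) the most. Beside HoxA 5 of 7 were lower, and Evx1, the homeobox gene beyond Hoxa13, fell from 1.447 to 0.4472 CPM (-1.66 ± 0.19, adjusted p = 2.18e-10). Hotair, the non-coding RNA gene between Hoxc12 and Hoxc11, was higher (0.30 ± 0.11, adjusted p = 0.0237), and Halr1, the other tested non-coding RNA gene of the clusters, was lower (-0.31 ± 0.07, adjusted p = 9.8e-05). With library type as covariate, 0 or 1 row of each list passed after CTCF loss in CTCF-AID cells. Of all genes 3.58% passed in that fit. Among the rows that passed were Aldh1a2, which was higher (1.12 ± 0.23, adjusted p = 0.0439), and Atp5g2 near HoxC, which was lower (-0.60 ± 0.10, adjusted p = 0.0106). The lists were not counted with the replicate pair as a block.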

How the data were processed

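EU-seq counts per transcript were used as deposited. According to the study's methods and the submitters' processing notes, the authors trimmed adapters, aligned reads to mm10 with BWA, used SAMtools 1.4 to drop alignments of low mapping quality, took out ribosomal and transfer RNA regions (bedtools), and ran HTSeq over 1 representative transcript per gene, exons and introns together. HTSeq's version and its use of strand are not given in the sources used here. The deposited counts of 56 columns cover the whole gene body, and 6 columns (NPC controls, IAA 1 h, A-485) at most the first 90 kb. Replicates were not pooled. Of the identifiers, 27296 matched GENCODE M21 with their version and 159 without, and 210 did not.

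Groups come from the sample titles. The Hox members and the other gene lists were chosen with earlier results of these data known. One member and a few other genes are not reported here. Genes with a mean count above 20 in a group compared were tested over the whole table with edgeR 4.0.16 (TMM, quasi-likelihood F test, two-sided, R 4.3.3) and Benjamini-Hochberg adjustment. Only the groups compared entered a fit. The CTCF-AID fit had library type as covariate. A gene passed with an adjusted p under 0.05. Log2 fold changes were centred on the median of genes above 15 TPM, while p-values test the uncentred change. SE is the uncentred change divided by the square root of F. Named genes are those that passed (all if up to 6, otherwise the 4 largest each way) and the highest member of each cluster. The count test was checked on simulated data. DESeq2 1.42.0 and other settings were alternatives. Over 150 replicate pairs the chi-square per degree of freedom was 1.44 to 38.2, so none was counted as 1 library deposited again.

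Same-numbered CTCF-AID libraries deviated together (r = 0.557 to 0.824 over 4 pairs), which is taken as pairing. Other replicate numbers did not meet that rule.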

Additional observations from a re-analysis of the deposited data

Results flagged for a closer look

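The response of Hoxc4 to 4 h of RAD21 loss differed between cell types by a test of the difference: the change in NPCs minus that in mESCs was -0.57 ± 0.11 on the log2 scale (adjusted p = 8.25e-05). The change of Hoxc9 in NPCs differed between 4 h and 2 h of IAA by -0.35 ± 0.08 (adjusted p = 0.0311), and that of Hoxc8 by -0.34 ± 0.08 (adjusted p = 0.0451).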

How the results depend on the processing

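The 24 falls after A-485 and the 26 differences between NPC and mESC controls kept their counts in the alternatives run, except without the count filter (27 and 29), while counts after RAD21 and CTCF loss depended on the setting. With DESeq2 the count of Hox genes past the test was 1 (initial mESC RAD21 loss), 3 (NPC RAD21 loss at 4 h, keeping Hoxa10, Hoxb3 and Hoxc4) and 0 (4 h against 2 h in NPCs). Without the count filter it was 8 (additional mESC RAD21 loss), 1 (YF-AA at 4 h, Hoxb4) and 4 (4 h against 2 h). With a joint fit of the NPC groups it was 4 for RAD21 loss at 4 h, with centring in the test 1 for 4 h against 2 h, and with the initial mESC experiment 0 for the difference between cell types. The replicate block gave 1 in the initial mESC experiment, 4 for CTCF-AID and 4 for 4 h against 2 h, and changed no other count by over 1.5 times. A crossed replicate block, chosen after seeing the data, gave 13 for NPC RAD21 loss at 1 h. The cause was not tested in these cases.

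Leaving out 1 library in turn gave 1 to 2 (initial mESC RAD21 loss), 6 to 9 (NPC, 1 h), 4 to 9 (2 h), 5 to 7 (4 h), 0 to 7 (4 h against 2 h), 1 to 2 (difference between cell types), 0 to 0 (CTCF-AID, YF-AA and truncation treatments), 7 to 10 (YF-AA against CTCF-AID), 0 to 9 (truncation against CTCF-AID), 5 to 6 (additional against initial controls), 24 to 24 (A-485) and 26 to 26 (NPC against mESC). Of the values of single genes under other settings, 521 kept direction and side of the threshold and 33 no longer passed, and with 1 library left out 286 did and 48 no longer passed. Low Hox counts limit mESCs most: 4 of 30 members had enough counts in the additional RAD21 experiment and 10 in the initial one, against 25 in NPCs.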
